A study of Mus musculus with 3 samples.

Results

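Hyaluronan and joint lubrication genes were examined as a set of 10 members, chosen by name from the 56833 genes of the deposited table: Prg4, Has1, Has2, Has3, Hyal1, Hyal2, Cemip, Cd44, Vcan and Hapln1. All 10 were found, and all but Has3 reached a mean of 50 normalized counts over the libraries. The RNA came from ankle synovium of mice of the genotype Efhd1CreER; Ai9, in which a drug-inducible Cre under Efhd1 switches on the red protein tdTomato. Red cells were sorted, and the labels call them telocytes, interstitial cells with long thin processes. They were kept on CytoSoft plates with a collagen coat, for 24 h by the design text, while the labels' general culture protocol speaks of fresh medium every 3 days. The plate had a stiffness of 0.2 kPa (the soft culture), 8 kPa (intermediate) or 64 kPa (stiff). Genotype, sort, coat and stated culture time were thus common to the 3 groups. The study asked how stiffness bears on the passage of these cells into fibroblasts. The number, age and sex of the mice, the induction of Cre and any pooling of animals are not given in the sources used here.

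Hyaluronan is a long unbranched sugar polymer that the synthases Has1, Has2 and Has3 make at the plasma membrane and extrude straight into the matrix or the joint fluid. In the joint, synovial fibroblasts supply both hyaluronan, which makes the fluid viscous, and lubricin, the mucin-like product of Prg4, which coats cartilage and lets the surfaces slide. Hyaluronan is cut by hyaluronidases and by the Cemip protein and is bound at the cell surface by Cd44. It is tied into a pericellular coat by the proteoglycan versican (Vcan), whose hold on the polymer is locked by the link protein Hapln1.

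Each stiffness had 1 library, so no difference has a replicate check, no test or p-value is given, and culture and stiffness cannot be told apart. The libraries held 25487064 (soft), 28081600 (intermediate) and 26474862 (stiff) reads on genes. Values are normalized counts, reads divided by 1 size factor per library, and 1 read was worth 0.943 to 1.03 of them. Where 3 values follow each other they stand in the order soft, intermediate, stiff. The first step is the log2 ratio of intermediate to soft, the second step that of stiff to intermediate, and the full range that of stiff to soft, each with 1 added to both normalized counts. The 3 ratios share libraries and are not independent of each other. An interval is the exact 95% Clopper-Pearson interval of a ratio, from the reads, and covers counting error only.

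Markers of cells other than fibroblasts were read as well. All 12 macrophage markers reached the mean of 50 and summed to 29005, 35740 (35739.8) and 62439.7 normalized counts. The 9 fibroblast markers all reached it and did not move together: over the full range 5 had ratios with intervals above 0, such as Col1a1 at 0.95, 3 had intervals below 0, Dcn at -0.44, Lum at -0.36 and Pdgfra at -0.20, and 1 had an interval that held 0, against 31.3% of all genes above and 25.9% below. Their sum, 227924, 274235 and 326634 normalized counts, was mostly that of the collagen genes Col1a1 and Col1a2. Of 6 mural cell markers 4 reached the mean, with full ranges of 0.53 for Cspg4 and 0.86 for Mcam, and of -0.08 for Rgs5 and -0.05 for Notch3, whose intervals held 0. The list summed to 2367, 3277 and 3138 normalized counts, of which Cspg4 gave 1642, 2496 and 2376. None of 6 endothelial markers reached it, with sums of 57.4 to 86.1. Of 8 mast cell and basophil markers 1 reached it, the basophil protease gene Mcpt8, with 1134, 759.8 and 742 normalized counts and a full range of -0.61, and Cpa3, Tpsb2, Ms4a2 and Fcer1a had 0 reads. Over the full range the direction of Mcpt8 is that of Has2 and Hapln1, but its steps differed from those of Has2. They were -0.58 and -0.03 for Mcpt8 and 0.10 and -0.60 for Has2. The part of basophil RNA in the levels of Has2 and Hapln1 was not tested. Of the 4 telocyte label genes, Efhd1, the gene behind the sort, had 10, 5 and 3 reads and Kit 41, 41 and 44. Cd34 had 235, 242 and 318 normalized counts, and Pdgfra is given above. In bulk RNA, fewer cells of a type and less RNA per cell cannot be told apart.

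The bases just upstream of 2 members are shown, since among members with a mean over 100 these had the widest full range: Hapln1, lower in the stiff library, and Prg4, higher there. They are the 300 bases before the start of the canonical transcript in GRCm39, the build in the submitters' processing notes, with CG dinucleotides in capitals. Each is written 5′ to 3′ on its gene's strand. The stretch of Hapln1 is at chr13:89687615-89687914 (plus strand) and that of Prg4 at chr1:150342010-150342309 (minus).
Hapln1: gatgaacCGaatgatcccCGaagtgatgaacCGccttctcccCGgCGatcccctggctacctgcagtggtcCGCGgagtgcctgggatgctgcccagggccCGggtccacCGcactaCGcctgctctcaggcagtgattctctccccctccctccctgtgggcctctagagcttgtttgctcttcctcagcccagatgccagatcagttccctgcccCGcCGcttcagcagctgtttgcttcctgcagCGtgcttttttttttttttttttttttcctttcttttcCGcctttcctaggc
Prg4: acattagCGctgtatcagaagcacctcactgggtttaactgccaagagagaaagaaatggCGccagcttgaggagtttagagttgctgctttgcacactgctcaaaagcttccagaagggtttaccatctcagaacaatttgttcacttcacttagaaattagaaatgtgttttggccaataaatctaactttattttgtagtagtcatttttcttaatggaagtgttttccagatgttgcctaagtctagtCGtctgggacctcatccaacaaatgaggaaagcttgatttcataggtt

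These windows differed in base composition. Hapln1 had 14 CG dinucleotides and Prg4 had 3, against a median of 9 in the windows of 21747 protein-coding genes. Of 5 motifs searched, none had its letters in these 2 windows. They were the TEAD core GGAATG, the AP-1 site TGANTCA, the cyclic AMP response element TGACGTCA and the CArG box of serum response factor, each on both strands, and the TATA box TATAAA on the gene's own strand. No motif contains another. Over all windows a match was found in 14.6% for TEAD, 7.38% for AP-1, 1.75% for the cyclic AMP element, 1.70% for the CArG box and 9.44% for the TATA box. Among the other members, Has1 had TGACGTCA at 83 bases before the start, Cemip had TATAAA at 32 bases before it, and Hyal2 had the TEAD core on the opposite strand, read as CATTCC, at 179 bases before it.

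The members spanned a wide range of levels. Per kilobase of canonical transcript Cd44 was the highest in every library, at 2864, 3128 and 3887 normalized counts per kb. Has2 came next on soft and intermediate plates, at 1517 and 1626 normalized counts per kb, ahead of Prg4 at 856 and 986. On the stiff plate the order of this pair was reversed, with Prg4 at 1320.2 and Has2 at 1076. Hyal2, Vcan and Cemip followed, between 464 and 883 normalized counts per kb. Hyal2 and Vcan lay close in the soft library, at 771 and 752, and changed places when the union of all annotated exons served as the length, at 317 and 574. Cemip passed Hyal2 in the stiff library with that length, at 332 against 319.8. Has1 lay at 93.5 to 103 normalized counts per kb, or 43.3 to 47.6 with that length. Hapln1, Hyal1 and Has3 lay lowest, from 1.48 to 30.3. Hyal1 shares exon bases with Naa80 and Hyal3 on the same strand, so its level depends on how shared exons were counted.

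**Figure D1:**
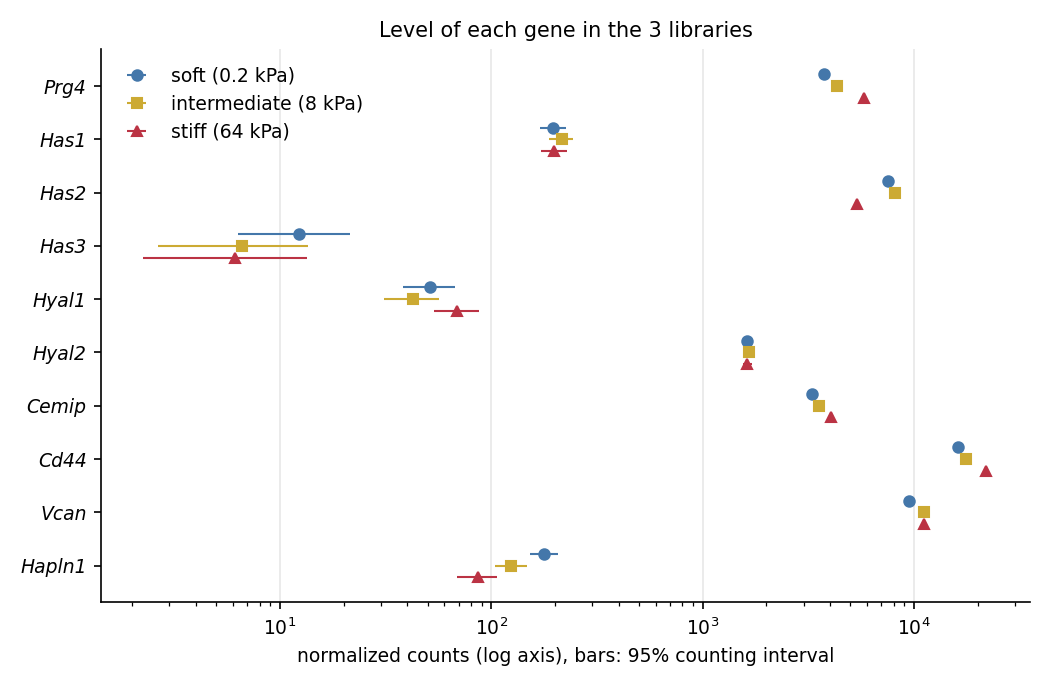
Normalized counts of the 10 members (rows) in the soft, intermediate and stiff library, on a log axis, with exact 95% counting intervals as bars, narrower than the symbol for abundant genes. Cd44 sits highest at 16194 to 21974, Prg4 shifts right and Has2 and Hapln1 shift left in the stiff library, and the 3 intervals of Has3 overlap.

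A gene was called past the fold when its log2 ratio reached 1 in size and its mean was at least 50, as it was for 11873 genes. Over the full range 1 of the 9 eligible members was called, Hapln1, which fell; of all genes 3.6% were called, 3.22% higher and 0.387% lower. In the first step no member was called, against 0.168% of all genes, 0.16% higher and 0.00842% lower. In the second step no member was called, against 1.25%, 0.825% higher and 0.421% lower. A weaker criterion asks only that the counting interval lie on one side of 0. Over the full range 6 of 9 members met it, Prg4, Cemip, Cd44 and Vcan above 0 and Has2 and Hapln1 below. Of all genes 57.1% met it, 31.3% above and 25.9% below, so the members' count is near the background. It was 6 of 9 in the first step, 5 above and 1 below, against 35.3% of all genes, 21.8% above and 13.5% below. It was 6 of 9 in the second step, 4 above and 2 below, against 48.3%, 26.3% above and 22% below. The members' median full range was 0.23, beside 0.0049 over all genes, and the members ran from -1.04 to 0.62. The median was 0.11 in the first step, beside 0.01 over all genes, and -0.00037 in the second, beside 0.0061. Ratios also varied with the length and GC content of transcripts. With this local trend subtracted the members' median full range was -0.02, beside -0.0027 over all genes, so the 0.23 did not remain. The members' median was then 0.048 in the first step, beside -0.0029 over all genes, and 0.0093 in the second, beside -0.00076.

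**Figure D2:**
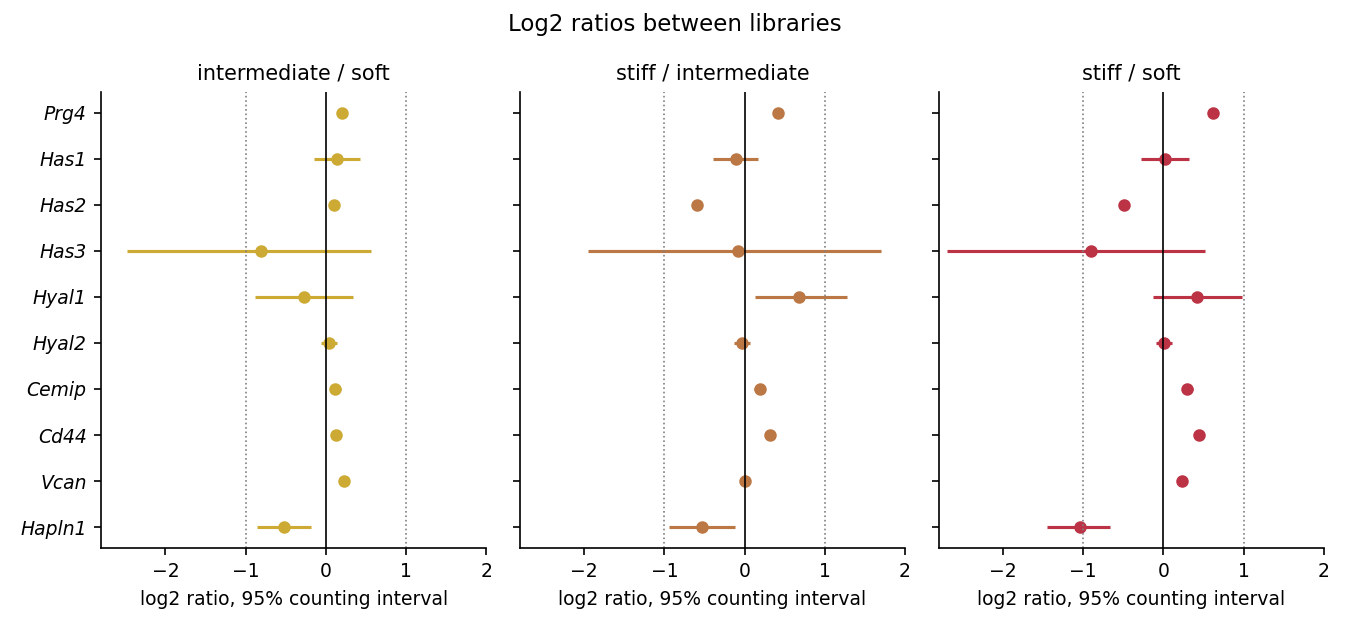
Log2 ratios of the 10 members between the libraries, with 95% counting intervals as lines and dotted lines at a log2 ratio of 1 in either direction. Hapln1 lies left of 0 in each panel, Prg4, Cemip and Cd44 lie right of 0 in each, and Has2 lies left of 0 where the stiff library is compared.

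Prg4, the lubricin gene, lies on the minus strand at chr1:150325163-150342009. It had 3742, 4311 and 5770.5 normalized counts, higher on each stiffer plate. The full range was 0.62 on the log2 scale, with an interval from 0.56 to 0.69, a ratio of 1.54. The first step was 0.20 and the second 0.42, so the larger part lay between the intermediate and the stiff library. Of all genes 8.70% had a higher full range. Prg4 shares 350 exon bases with Tpr on the opposite strand. Tpr had 217, 279 and 322 reads and Prg4 3650, 4573 and 5627. The strand setting of the counting is not given in the sources used here, so reads from the shared bases cannot be assigned.

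Of 4 transcription factors reported to act on Prg4, 3 reached the mean of 50 and 1 of these was called, against 3.22% of all genes called higher. It was Creb5, which supports lubricin expression in superficial cartilage. Creb5 had 109.7, 156 and 284 normalized counts, higher on each stiffer plate, and rose by 1.36 over the full range, with an interval from 1.05 to 1.71. Foxo3, a stress-responsive forkhead factor, had a full range of 0.33, with an interval from 0.22 to 0.44. Its relative Foxo1 had 0.08, with an interval from -0.04 to 0.21. Erg, an ETS factor, had 4, 4 and 3 reads. Synovial lining cells make much of the lubricin of a joint, and 2 of their 5 listed markers reached the mean of 50. Itga6, an integrin subunit, had 831, 919 and 1234 normalized counts and a full range of 0.57, with an interval from 0.44 to 0.70. Htra4, a secreted protease, had 70.7, 67.9 and 65.6, and a full range of -0.11 with an interval that held 0. Clic5, Tspan15 and Col22a1 had at most 10 reads in any library, so 3 of 5 lining genes were near the floor. The part of lining cells in the level of Prg4 was not tested.

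The hyaluronan synthases differed in level and pattern. Has2, the main synthase of fibroblasts, lies on the minus strand at chr15:56528342-56557999. It had 7557, 8099.7 and 5360.3 normalized counts, so the stiff library stood below both others and the intermediate one slightly above the soft one. The first step was 0.10, with an interval from 0.06 to 0.15. The second step was -0.60, with an interval from -0.65 to -0.55, and 2.13% of all genes had a lower one. The full range was -0.50 (-0.495), short of the fold, with an interval from -0.55 to -0.44. It was -0.35 once the local trend was subtracted.

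Has1, a synthase usually less abundant than Has2 in fibroblasts, had 196, 215 and 199 normalized counts. The libraries did not separate, and the full range of 0.02 had an interval from -0.27 to 0.32, so a difference within those bounds was not detectable at this depth. Has3, whose product tends to be shorter chains, had 12, 7 and 6 reads and an interval from -2.70 to 0.53, too few reads to order the libraries. Has2os, a noncoding RNA from the strand opposite Has2, shares 400 exon bases with it. It had 75.9, 62.2 and 45.1 normalized counts, a full range of -0.74, and reads of the shared bases cannot be assigned between the 2 genes.

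Hyaluronan is built from UDP-glucuronate and UDP-N-acetylglucosamine. All 7 genes listed for making these sugars reached the mean of 50, none was called, and over the full range 3 had intervals below 0 and 0 above, against 25.9% and 31.3% of all genes. Their median was -0.02, and nothing particular to the list is read from these counts. Uap1, which completes UDP-N-acetylglucosamine, had 7086, 6745 and 5162 normalized counts and a full range of -0.46, with an interval from -0.51 to -0.40. As with Has2, most of it lay in the second step, at -0.39. Ugdh, which makes UDP-glucuronate, had 13168, 12463 and 12453 normalized counts, and its difference lay between the soft library and the other two. Gfpt2, an entry enzyme of the hexosamine pathway, had a full range of -0.12. Its paralogue Gfpt1, at 0.07, and Gnpnat1, which acetylates the amino sugar, at -0.02, had intervals that held 0.

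Among the genes that break hyaluronan down, Cemip, whose product takes part in cutting long chains, lies on the minus strand at chr7:83582065-83735724. It had 3296, 3568 and 4062 normalized counts, higher on each stiffer plate. The full range was 0.30, with an interval from 0.23 to 0.37. Transcripts as long and GC-rich as that of Cemip had a local trend of 0.33. With the trend subtracted the full range of Cemip was -0.03 and the first step -0.10, so its direction rests on that choice.

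Hyal2, a membrane-anchored hyaluronidase, had 1614, 1661 and 1626 normalized counts. The libraries did not separate, and the full range of 0.01 had an interval from -0.09 to 0.11. Hyal1, the lysosomal hyaluronidase, had 50, 45 and 67 reads. The interval of its full range, from -0.13 to 0.98, held 0, while that of the second step, from 0.13 to 1.27 around 0.68, did not. Hyal1 shares 1920 exon bases with Naa80 and 1436 with Hyal3 on the same strand, so its reads depend on how shared exons were counted. Naa80, an actin-modifying enzyme gene, had 283, 262 and 325 reads, and Hyal3, a hyaluronidase relative, had 5, 5 and 8. All 3 of these overlapping genes were read most in the stiff library.

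Of 9 further breakdown genes 4 reached the mean of 50 and could be called, and none was, against 3.6% of all genes. Hexa and Gusb, lysosomal enzymes that take single sugars off the fragments, had full ranges of 0.16 and 0.34 with intervals above 0. Cemip2, a transmembrane relative of Cemip, had 0.13, with an interval from 0.01 to 0.24. Hyal4, Hyal5, Hyal6 and Spam1 had 0 reads, which allows up to 3 reads in each library.

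**Figure D3:**
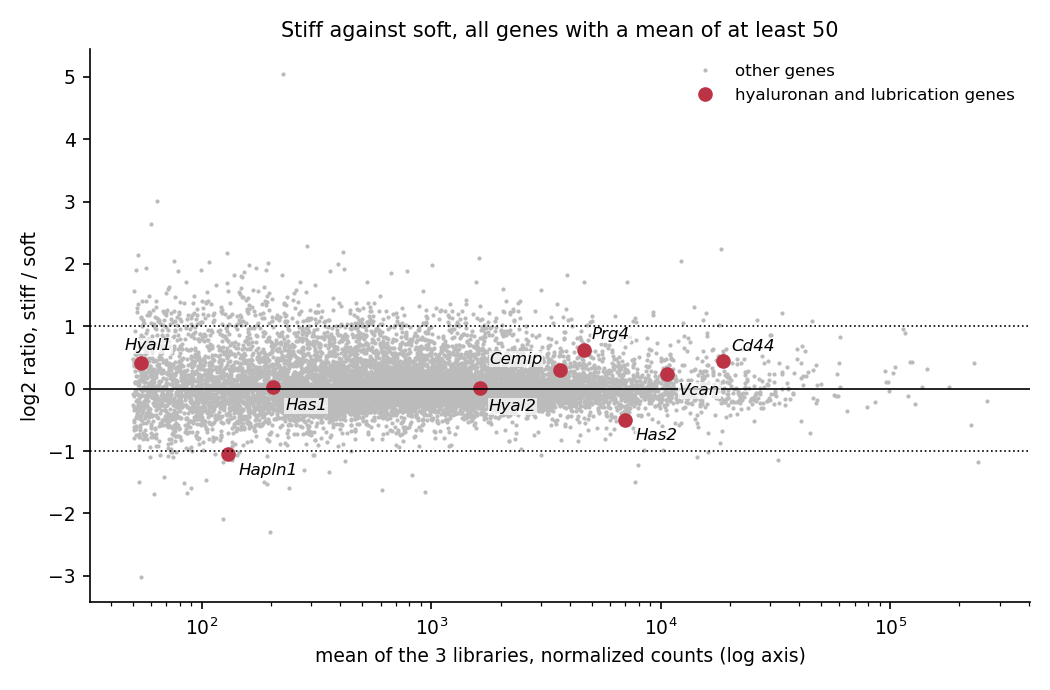
Log2 ratio of stiff to soft against the mean level (log axis) for the 11873 genes with a mean of at least 50, with the 9 members among them in red and dotted lines at a log2 ratio of 1 in either direction. Of the members Hapln1 alone is past a dotted line, at -1.04, and Has2 is the other one well below 0.

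Cd44, the main hyaluronan receptor, lies on the minus strand at chr2:102641486-102732010. It was the most abundant member, with 16194, 17685 and 21974 normalized counts, higher on each stiffer plate. The full range was 0.44, with an interval from 0.41 to 0.47, of which the second step made 0.31. Macrophages carry Cd44 too. All 12 of their markers had a full range with an interval above 0, against 31.3% of all genes, and 9 of 12 were called, against 3.22% called higher. Their median was 1.25. Ptprc, the gene of the pan-leukocyte protein CD45, had 273.7, 368 and 564 normalized counts. The part of macrophage RNA in the level of Cd44 was not tested.

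Of 7 other hyaluronan receptors 5 reached the mean and 1 of these was called, against 3.6% of all genes. Stab1, a scavenger receptor of macrophages and sinusoidal endothelium, had 467, 701 and 1849 normalized counts and rose by 1.98 over the full range, with an interval from 1.83 to 2.14. The macrophage markers above moved the same way, and their part was not tested. Tlr2, a pattern receptor reported to sense hyaluronan fragments, had a full range of 0.24, and Tlr4, its relative, -0.03 with an interval that held 0. Layn, the gene of layilin, had 4128, 3948 and 3895 normalized counts and a full range of -0.08, with an interval from -0.15 to -0.02. Hmmr, whose product also organises the mitotic spindle, had 613, 742 and 505 normalized counts, highest on the intermediate plate, with a second step of -0.56. Lyve1 and Stab2, receptors of lymphatic and sinusoidal endothelium, had at most 4 reads in any library.

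Cd44 is anchored to actin by ezrin, radixin and moesin and binds osteopontin as well as hyaluronan. Moesin (Msn) had 29104, 30899 and 38540.4 normalized counts, a full range of 0.41 that, like that of Cd44, lay mostly in the second step. Ezrin (Ezr) had a full range of 0.63, with an interval from 0.45 to 0.81. Radixin (Rdx) had 3510.2, 3547 and 3517 normalized counts, levels that did not separate. Osteopontin (Spp1) had 316083, 262242 and 140702 normalized counts. It fell by 1.17 over the full range, with an interval from -1.18 to -1.16, so this ligand and Cd44 stood in opposite order across the libraries.

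Vcan, the large hyaluronan-binding proteoglycan of the pericellular coat, lies on the minus strand at chr13:89803431-89890814. It had 9489, 11142 and 11139 normalized counts, so the soft library was low and the other two were level. The first step was 0.23, with an interval from 0.19 to 0.27, and the second had an interval from -0.04 to 0.04. The canonical transcript is 12.6 kb long, and the local trend for such transcripts was 0.18 in the first step. With it subtracted the first step of Vcan was 0.05 and the full range 0.06. Counts per gene do not separate the splice forms of Vcan or of Cd44.

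Hapln1, whose product clamps versican or aggrecan to hyaluronan, lies on the plus strand at chr13:89686581-89759950. It had 178, 124 and 86.1 normalized counts, from 174, 132 and 84 reads, lower on each stiffer plate. It fell by 1.04 over the full range, with an interval from -1.44 to -0.67, and the stiff library held 0.486 times the soft level. Of all genes 0.312% had a lower full range. The steps were -0.52 and -0.53, and of the 9 members Hapln1 alone moved by 0.5 or more the same way in both, as did 1.08% of all genes, 1.04% upward and 0.0421% downward. The call sat near the threshold: the full range was -0.87 with the length and GC trend subtracted, which is short of the fold.

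The genes most like Hapln1 were sought among 10615 named genes with a mean of at least 100, by Euclidean distance over the first step and the full range, 2 ratios from 3 libraries. The nearest was Mmp3, the gene of the matrix protease stromelysin-1, at a distance of 0.171, with 43770.3, 33751 and 19886 normalized counts. Cenps, a centromere protein gene, followed at 0.182, with 176, 136 and 92.3. Rab27b, a GTPase of secretory vesicles, was at 0.194, with 254, 203 and 119.98.

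**Figure D4:**
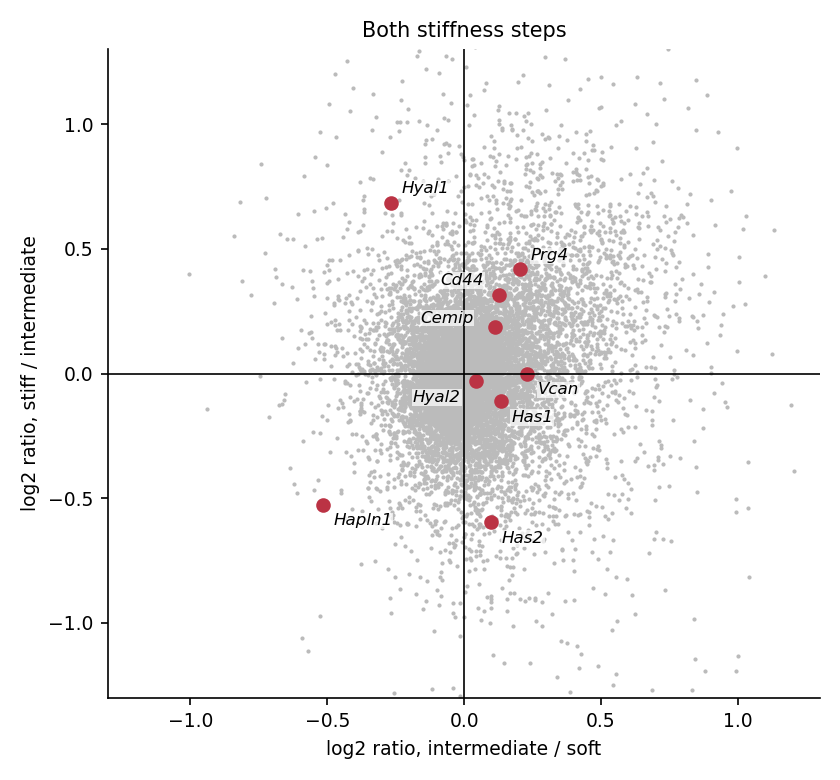
Log2 ratio of intermediate to soft (horizontal) against that of stiff to intermediate (vertical), with the 9 eligible members in red and all other genes with a mean of at least 50 in grey; 57 genes lie outside the axis limits of 1.3. Hapln1 sits at the lower left, at -0.52 and -0.53, Has2 is low in the vertical direction alone, and Prg4 and Cd44 are above 0 in both. The axes share the intermediate library.

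Hapln1 and Vcan are neighbours, with no protein-coding gene in the 43.5 kb between them. Over the full range one fell and the other stood at 0.23, and per kilobase their levels in the stiff library were 14.6 and 883 normalized counts. Hyal2, at chr9:107445086-107450171, and Hyal1, at chr9:107454126-107458909, are neighbours too. Their levels there were 777 and 22.8 normalized counts per kb, and that of Hyal1 depends on how its shared exons were counted.

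Of 13 other hyaluronan-binding matrix genes 5 reached the mean and 0 of 5 were called, which at 3.6% of all genes is no result about the list. Ptx3, a pentraxin that helps to organise hyaluronan-rich matrix, had 9858, 10154 and 17653 normalized counts, so the stiff library stood apart. Its full range was 0.84, with an interval from 0.80 to 0.88. Tnfaip6, whose product TSG-6 moves heavy chains onto hyaluronan, had 107, 156 and 132 normalized counts, highest on the intermediate plate, and the interval of its full range held 0. So did those of Itih2 and Itih5, which encode heavy chains, and of the link protein gene Hapln4. Acan, the aggrecan gene of cartilage, was under the mean of 50, with 22, 53 and 64 reads. Hapln1 is also a cartilage gene, and the 7 chondrocyte markers, Acan among them, summed to 31435, 34408 and 37979 normalized counts. Comp, a matrix protein also made by fibroblasts, gave 96.8% to 97.8% of each sum. The markers did not share one order: Col2a1, the main cartilage collagen, had 209, 330 (329.9) and 576 normalized counts, while Sox9, the chondrocyte transcription factor, had 467, 715 and 485. Matn3, Col9a1 and Col11a2 were near or at 0. The part of cartilage RNA in the level of Hapln1 was not tested.

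Versican and Cd44 are cut by proteases, of which 6 of 8 listed reached the mean and 0 of 6 were called, against 3.6% of all genes. Adamts5, a versican- and aggrecan-cleaving protease, had 1487, 1611 and 2609 normalized counts and a full range of 0.81, with an interval from 0.72 to 0.91. Adamts1 and Adamts9, which also cleave versican, had 0.46 and 0.69 with intervals above 0, while Adamts4 had -0.26 with one below. Adam10 and Mmp14, which shed Cd44, had 0.01 and 0.02 with intervals that held 0. Of the 52 listed pathway genes beside the members, 34 reached the mean. Stab1 and Creb5 rose and Spp1 fell over the full range, where 3.22% of all genes were called higher and 0.387% lower. The median was 0.06, beside 0.0049 over all genes.

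**Figure D5:**
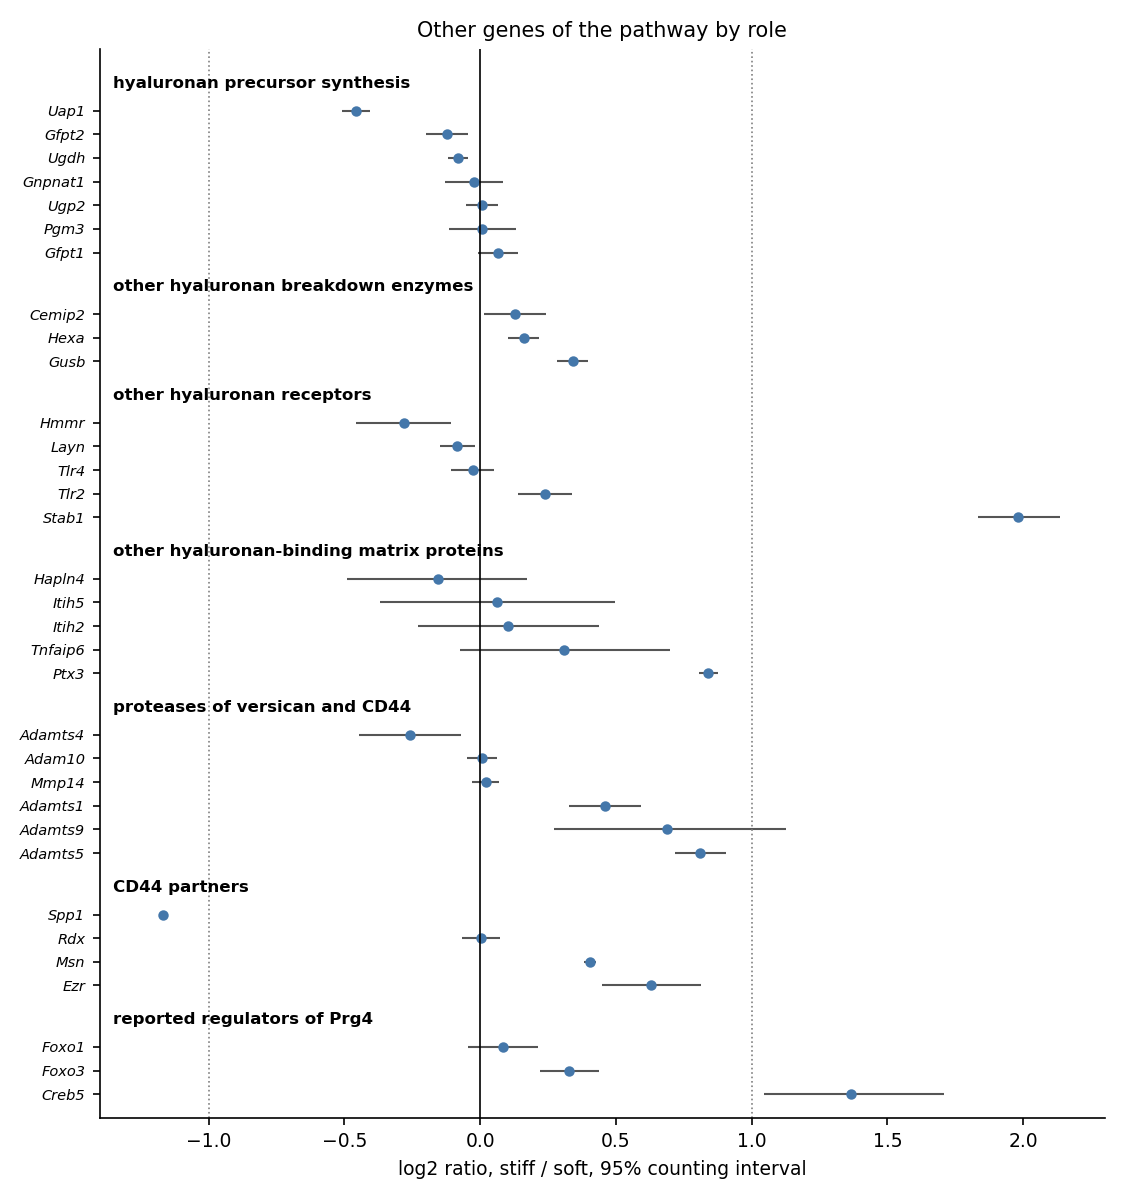
Log2 ratio of stiff to soft for 33 of the 34 listed pathway genes with a mean of at least 50, grouped by role, with 95% counting intervals as lines and dotted lines at a log2 ratio of 1 in either direction. Stab1 and Creb5 lie past the right dotted line and Spp1 past the left one, and Uap1 is the lowest of the precursor genes at -0.46.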

How the data were processed

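Poly(A) libraries (TruSeq Stranded mRNA, per the labels' protocols) came from 3 cultures, 1 per stiffness. The authors deposited gene-level signal, that is DESeq2-normalized counts per the names of the deposited files. The submitters' processing notes name bcl2fastq 2.20.0, STAR 2.7.9a, featureCounts, Subread 2.0.1, DESeq2 1.34.0 and GRCm39. The annotation is not given in the sources used here. The 3 files held 1 identical table, whose columns carry the sample titles. Divided by the smallest value above 0 in its column, every value (100%) came out whole within 1e-06 reads, so whole reads were recovered. A count test needs replicates and was not made.

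The members and lists were chosen with earlier results of these data known. The genes named beside the members were, from each pathway list, the 2 with the highest mean, those past the fold and at most 3 more by size of full range, plus the 3 nearest to a called member. Adamts4, Acan, the marker genes, genes near 0 and overlapping genes were added after their values were seen. Some items are not reported here. Lengths, GC content, positions and upstream bases came from GENCODE vM39, matched by symbol for 97.4% of the 14291 genes whose mean reached 10. The trend was fitted locally and linearly, with 300 neighbours in length and GC content per gene. Alternatives were other pseudocounts, scalings, minimum means and thresholds, and the trend. Scripts were tested on simulated data. Software was Python 3.11.15 with pandas 2.3.3, numpy 2.4.6, matplotlib 3.10.9 and scipy 1.17.1, and R 4.3.3 with edgeR 4.0.16 for the TMM scaling.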

Additional observations from a re-analysis of the deposited data

How the results depend on the processing

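No paired analysis was possible because each stiffness has 1 library, and for the same reason no library could be left out. Hapln1 was called over the full range, and moved one way over both steps, under the 4 other scalings and a pseudocount of 0.1. Both of these member counts were 0 with a pseudocount of 10, with the length and GC trend subtracted and with a minimum mean of 200, which is above the mean of Hapln1. The full-range count was also 0 at a fold threshold of 2, and the count over both steps was 0 at a step threshold of 1. At a fold threshold of 0.5 there were 2 members over the full range, 1 in the first step and 3 in the second. Counts over all genes, in the order full range, first step, second step, were 428, 20 and 148 as reported. They were 5827, 3646 and 3904 with no minimum mean, 822, 215 and 451 with a minimum of 10, and 238, 8 and 72 with a minimum of 200. The split moved too: the full range had 382 higher and 46 lower as reported and 2932 and 2895 with no minimum mean, and the first step 19 and 1 as reported and 1186 and 2460 with none. At a fold threshold of 0.5 they were 1850, 546 and 1050, and at 2 they were 17, 1 and 8. The first-step count was 10 with a pseudocount of 10 and 13 with the trend subtracted. The full-range count with the trend subtracted was 295, 246 higher and 49 lower. Of the 27 ratios of the 9 members above the minimum, 16 stayed inside their counting interval under 7 alternatives, 11 left it under at least 1, and 5 changed sign. The 3 ratios of Has3, for which no trend was fitted, stayed inside their wide intervals under the other 6. The 5 sign changes were the full range of Has1 and of Hyal2, whose intervals held 0, the second step of Vcan, and the full range and first step of Cemip, as given above. The full range ran from 0.57 to 0.64 for Prg4, from -0.55 to -0.35 for Has2, from 0.38 to 0.47 for Cd44 and from -1.10 to -0.87 for Hapln1. Apart from the minimum means and thresholds, which act by construction, the cause was not tested. Depth limits Has3 and Hyal1. The exon union as gene length was chosen after seeing the data.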

Other observations

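The genes around Hapln1 and Vcan on chromosome 13 were looked up after their values were known, and the 4 examined stood lower in the stiff than in the soft library, as did 48.9% of all genes. Edil3, an integrin-binding matrix protein gene before Hapln1, had 1508, 1381 and 989 normalized counts and a full range of -0.61, with a counting interval from -0.73 to -0.49. Cox7c, a cytochrome c oxidase subunit gene further out, had -0.21. Beyond Vcan, the DNA repair gene Xrcc4 had -0.28, with an interval from -0.52 to -0.04, and Tmem167 had -0.17. None of the 4 was past the fold, and a count of 4 shows nothing particular to the region.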
